A study of Sus scrofa with 4 samples.

Results

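The genes of 10 ATP-dependent chromatin remodellers outside the BAF complex were examined for open chromatin in porcine fetal fibroblasts (PFFs), the cells that serve as nuclear donors in pig cloning. They were SMARCA1 and SMARCA5 of the ISWI family, CHD1, CHD2, CHD3, CHD4, CHD7 and CHD8 of the CHD family, and INO80 and SRCAP of the INO80 family. Peaks were taken where they overlapped the RefSeq model of such a gene (Sscrofa11.1) or the 10 kb on either side by at least 1 bp. All 10 symbols matched the gene table, out of 19550 protein-coding models. The windows held 61 of 96367 peaks in BRG1 1, 60 of 90851 in BRG1 4, 62 of 107475 in control 1 and 62 of 105954 in control 4. The peaks fell into 76 of the 121788 regions obtained by merging the overlapping peaks of all libraries.

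ATAC-seq reads accessibility through Tn5, a transposase that inserts sequencing adapters into DNA not covered by nucleosomes. The BRG1 group held 2 libraries (BRG1 1 and BRG1 4) of PFFs labelled as over-expressing BRG1, with pTK-642-BRG1 in their titles. The control group held 2 libraries (control 1 and control 4) of PFFs labelled wild type, with pTK-642 in their titles. All 4 came from skin fibroblasts, and all had been serum-starved. The labels do not say what drives BRG1, whether cells were clones or pools, or whether replicates were grown apart, so the p-values below measure only the spread between these libraries, which may be technical.

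Remodellers use ATP to slide, evict or exchange nucleosomes. ISWI enzymes space nucleosomes evenly, CHD enzymes carry paired chromodomains that read histone tails, and INO80-type enzymes act on the histone variant H2A.Z. BRG1, the SMARCA4 product, belongs to the separate BAF family. Fibroblasts, like other cells, express enzymes of all these families, and accessible sites at such genes usually mark their promoters and enhancers. A peak list does not measure transcription.

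The lists differed in length and width before any gene was considered. Depth relative to control 1, read from the lowest background in each list, was 81.2% in BRG1 1, 92.6% in BRG1 4 and 93.5% in control 4. This reading takes tags as extended equally in all libraries, which is not known. BRG1 4 stood apart, with a median peak width of 541 bp against 396 to 404 bp in the other 3 libraries. At SMARCA4 itself 6 peaks were called in each BRG1 library, against 6 in control 1 and 7 in control 4, and these do not tell the introduced sequence from the native gene. A peak within 1 kb of a gene end was called in all 4 libraries at 11 of 13 fibroblast markers, with DCN in no library and FN1 in 1, and at 68.2% of all protein-coding genes. Among 33 markers of other cell types 11 had such a peak in all 4 libraries. These were 2 of 6 for keratinocytes (KRT10 and EPCAM), 1 of 6 for endothelium (KDR), 2 of 6 for immune cells (CD3E and CD68), 2 of 5 for skeletal muscle (MYOD1 and DES), 2 of 6 for melanocytes and glia (MITF and PMEL) and 2 of 4 for adipocytes (PLIN1 and LEP). KRT5, TP63, PECAM1, CDH5, PTPRC, SOX10 and ADIPOQ were among those with none in any library.

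The first question was whether the remodeller genes held more or fewer open sites with BRG1 over-expressed. Their windows held 60.5 ± 0.707 peaks with BRG1 and 62 ± 0 in the controls (SD, n = 2 each). The two-sided exact permutation test gave p = 0.33, the smallest that 2 against 2 allows. The ratio was 0.976, while for all peaks it was 0.877. Relative to list length there were 6.33 peaks per 10000 in BRG1 1 and 6.60 in BRG1 4, against 5.77 in control 1 and 5.85 in control 4. Both BRG1 libraries lay above both controls on this scale, by a mean difference of 0.657 (exact permutation p = 0.33, n = 2 each). The directions depended on how many peaks of each list were used. With the 90851 strongest peaks of each list the ratio of counts was 1.08, and with the strongest 45425 the difference per 10000 was −0.330.

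The length under these peaks was 33648 bp in BRG1 1 and 40065 bp in BRG1 4, against 34487 bp in control 1 and 33365 bp in control 4. BRG1 4 was the highest of the 4, and BRG1 1 lay between the controls. The mean of 36856.5 ± 4537.5 bp with BRG1 and that of 33926 ± 793 bp in the controls (SD, n = 2 each) had a ratio of 1.09 (exact permutation p = 0.67, two-sided). Without BRG1 4 the ratio was 0.992.

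**Figure D1:**
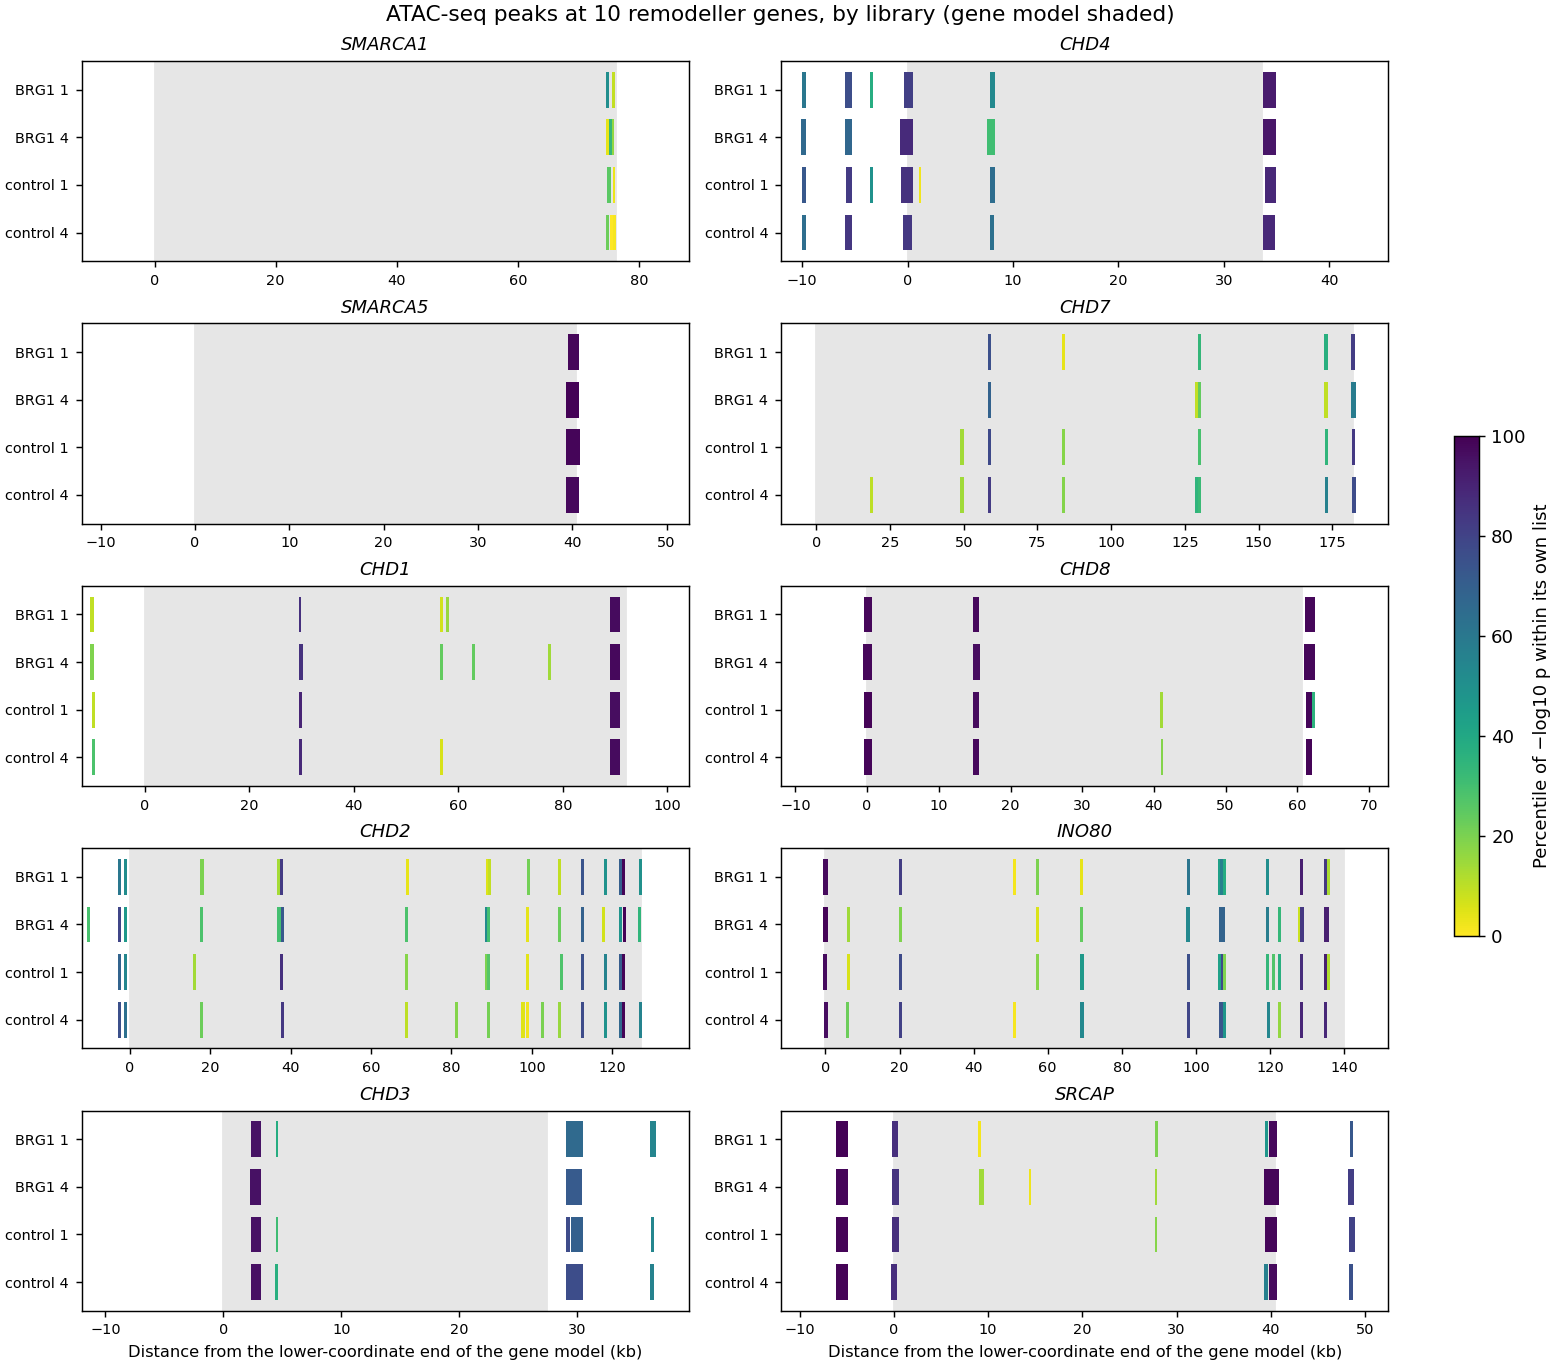
Peaks of the 4 libraries (rows) along each gene window, with distance from the lower-coordinate end of the gene model in kb and the model shaded. Colour gives the percentile of a peak's −log10 p within its own list, and very narrow peaks are drawn wider to be visible. The darkest bars recur in all 4 rows, and no bar of a region called in fewer than 4 libraries exceeds percentile 55.6.

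Most strong sites were common to all 4 libraries. Of the 76 regions 42 (55.3%) were called in all 4, against a background of 61.8% of all 121788 regions. Their median percentile within each list was 74.8 in BRG1 1, 69.2 in BRG1 4, 77.7 in control 1 and 78.2 in control 4, against 60.4, 58.4, 64.4 and 63.9 in the same libraries over all such regions. Of these 42 regions 12 lay within 1 kb of a gene end, 22 elsewhere inside a model and 8 in the flanks. The other 34 regions were weak, with median percentiles of 14.4 to 19.7 by library, and 31 of them lay inside a gene model away from its ends. Over all regions not shared by all 4 libraries the medians were similar, at 14.4 to 18.5. A single library alone called 15 regions (19.7%), where the background was 16.4% of all regions. Of these 1 came from BRG1 1 (1.32% of the 76), 5 from BRG1 4 (6.58%), 4 from control 1 (5.26%) and 5 from control 4 (6.58%). The backgrounds for the same libraries were 2.41%, 3.49%, 5.58% and 4.97%.

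Regions particular to a group were few and weak. Both BRG1 libraries and neither control called 2 of 76 regions (2.63%), where the background was 0.741%, and both controls and neither BRG1 library called 2 (2.63%), where the background was 4.41%. Such a region lay in the window of 3.54% of all protein-coding genes for BRG1 and of 15.9% for control, and of 2 of 10 members in each direction. The members' windows are longer (median 88.4 kb against 40.7 kb), so these shares by gene are not on an equal footing. The BRG1-only regions lay inside CHD2 and SRCAP, and the control-only regions inside CHD7 and CHD8. These counts rose with every library left out. The rule is then looser, since fewer libraries must hold or lack a call, so the rise does not measure how stable the counts are. BRG1-only regions then numbered 7 without BRG1 1, 3 without BRG1 4, 4 without control 1 and 6 without control 4. Control-only regions numbered 6, 3, 7 and 6 without the same libraries.

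The 2 BRG1-only regions ranked low in their lists. The one in CHD2, at chr7:86017614-86017943, had summit pileups of 19 tags in BRG1 1 and 20 in BRG1 4, at percentiles of 13.6 and 29.8. Here the pileup is the whole number of extended tags over the summit, recovered from the authors' fold and p-value. It lay 403 bp below a stronger region called in all 4 libraries. The one in SRCAP, at chr3:17671345-17671899, had pileups of 9 and 12 tags, at percentiles of 1.71 and 14.4.

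The 2 control-only regions were also weak. The one in CHD7, at chr4:72621717-72621935, had a pileup of 13 tags in each control library, at percentiles of 14.0 and 14.1. The one in CHD8, at chr7:77760339-77760725, had pileups of 13 tags in control 1 and 14 in control 4, at percentiles of 14.0 and 18.5. A missing call at such heights means that no peak was detectable at this depth, not that the site was closed.

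**Figure D2:**
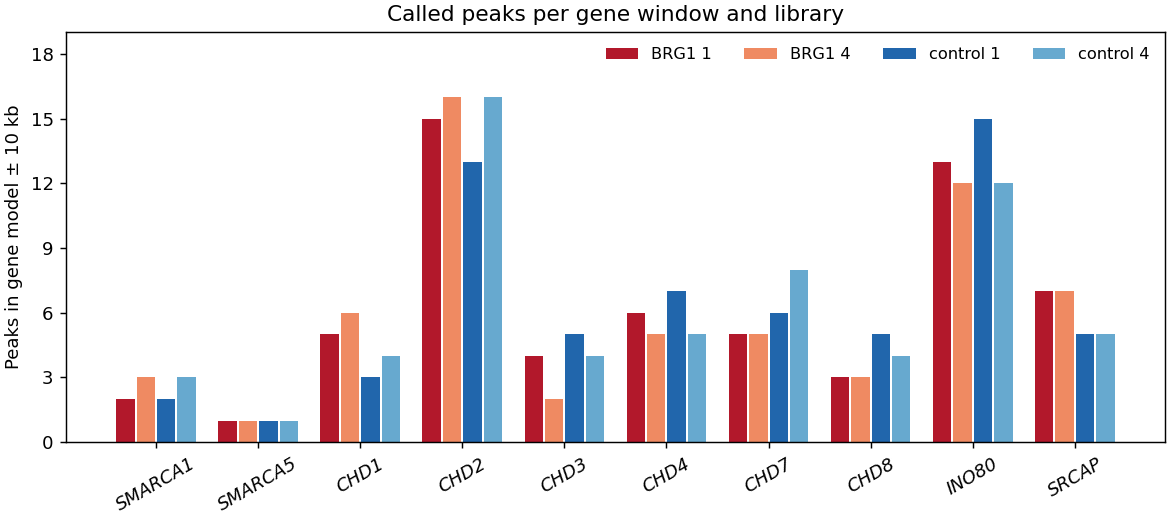
Number of peaks (y axis) in each gene window of the model with 10 kb on both sides, by library. CHD2 and INO80 hold the most peaks and SMARCA5 holds 1 in every library; bars of the groups separate for CHD1 and SRCAP (BRG1 higher) and for CHD7 and CHD8 (BRG1 lower).

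Peak numbers per gene separated the groups at 4 of 10 members. SRCAP had 7 peaks in each BRG1 library against 5 in each control, and CHD1 had 5 in BRG1 1 and 6 in BRG1 4, against 3 in control 1 and 4 in control 4. Such a gene with more peaks in both BRG1 libraries made up 1.24% of all protein-coding genes. CHD7 had 5 peaks in each BRG1 library against 6 in control 1 and 8 in control 4, and CHD8 had 3 in each BRG1 library against 5 in control 1 and 4 in control 4. The background for fewer peaks in both BRG1 libraries was 15.0% of genes. Most genes have short windows and few peaks (median window 40.7 kb and 3.25 peaks per library, against 88.4 kb and 5.13 for the members), so these shares and the members' counts are not on an equal footing. With the strongest 45425 peaks of each list the difference of group means was 0 at CHD1, SRCAP, CHD7 and CHD8.

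Density ranged widely among the members. SMARCA5 had 1.66 peaks per 100 kb of window on the mean of 4 libraries, SMARCA1 had 2.60, CHD7 had 2.97, CHD1 had 4.01 and CHD8 had 4.65. CHD3 had 7.90, INO80 had 8.13, SRCAP had 9.92, CHD2 had 10.2 and CHD4 had 10.7. The member median was 6.27 and that of all protein-coding genes 6.64 peaks per 100 kb. SMARCA5, the member with the fewest peaks per length, held one of the strongest.

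Among the ISWI genes, SMARCA5, which encodes the ATPase SNF2H of the ACF and CHRAC complexes, had a single and very strong site. It spans the higher-coordinate end of the model (chromosome 8, 84184572 to 84224943), at chr8:84223868-84225334. Its summit pileup was 327 tags in BRG1 1 and 410 in BRG1 4, against 404 in control 1 and 344 in control 4. The percentiles were 98.1, 99.4, 98.6 and 97.8, so it ranked near the top of every list and the groups overlapped. No other peak was called within the model or 10 kb of it.

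SMARCA1, which encodes the related ATPase SNF2L and lies on the X chromosome (106039961 to 106116156), was the opposite case. Its window held 2 weak regions, both just inside the higher-coordinate end. The nearer to the end, at chrX:106115465-106116022, had 12 tags in BRG1 1 and 13 in BRG1 4, against 10 in control 1 and 9 in control 4, at percentiles of 9.0, 16.7, 3.09 and 1.31. The other, at chrX:106114590-106115432, had 26 and 17 tags in the BRG1 libraries, against 16 and 15 in the controls, at percentiles of 51.1, 33.6, 25.6 and 22.5. By the strongest peak of each library both regions were higher in both BRG1 libraries, from few tags. At chrX:106114590-106115432, however, that peak of BRG1 4 had its summit 75226 bp from the lower end of the model, against 74724 to 74793 bp in the other libraries. Another BRG1 4 peak, over the position of the others, ranked at percentile 3.97, so different sites were compared there. In the region nearer to the end, the peaks of BRG1 4 and control 4 did not overlap. Their summits lay 75627 bp and 75956 bp from the lower end, so these libraries were also compared at different sites. SMARCA1 was the member whose best peak ranked lowest in every list.

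CHD1, which binds methylated histone tails at transcribed genes (chromosome 2, 105113149 to 105205303), carried its main site 1260 bp inside the higher-coordinate end. That region, chr2:105202094-105204043, had 291 tags in BRG1 1 and 301 in BRG1 4, against 314 in each control, and the groups overlapped once depth was scaled. A second shared region deep in the gene, chr2:105142667-105143482, had 83 and 75 tags in BRG1 1 and BRG1 4, against 110 and 98 in control 1 and control 4, and stayed lower in both BRG1 libraries after scaling. A weak region at the outer edge of the lower flank, chr2:105102503-105103519, had 12 and 13 tags in BRG1 1 and BRG1 4, against 19 in each control. All these summits lay outside the 10 kb. Each control had 2 peaks in this region, and its 19-tag peak did not reach into the window. The peaks that did ranked at percentiles of 9.51 in BRG1 1 and 19.4 in BRG1 4, against 9.71 in control 1 and 28.4 in control 4, so the groups overlapped there. The other peaks were weak and lay in the gene body, at percentiles of 6.78 and 15.3 in BRG1 1 and of 14.4 to 24.0 in BRG1 4, against 6.08 for the single one in control 4 and none in control 1. CHD1 and CHD3 had no peak within 1 kb of either gene end in any library, and both had one within 3 kb in all 4.

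CHD2, the closest relative of CHD1 (chromosome 7, 85980759 to 86107886), was the richest locus, with 21 regions of which 10 were called in all 4 libraries. Peaks numbered 15 in BRG1 1 and 16 in BRG1 4, against 13 in control 1 and 16 in control 4, so that the groups overlapped. The strongest region, chr7:86103346-86104202, lay 3684 bp inside the higher-coordinate end with 378 and 405 tags in the BRG1 libraries, against 451 and 432 in the controls. Its neighbour chr7:86102543-86103152 was far weaker, with folds over background of 4.86 in BRG1 1 and 3.06 in BRG1 4, against 4.66 in control 1 and 4.35 in control 4. Once scaled for depth both regions overlapped between groups. The lower-coordinate side held another pair, at 2193 bp and 810 bp below the model, called in all 4 libraries at percentiles of 46.4 to 79.0. A region at the outer edge of the window, chr7:85969881-85970846, reached into the 10 kb flank with a peak of BRG1 4 alone, although all 4 libraries called peaks in it.

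CHD3 and CHD4 encode alternative ATPases of NuRD, a complex that joins remodelling to histone deacetylation. CHD3 (chromosome 12, 53135767 to 53163244) had its main region 2298 bp inside the lower-coordinate end, at chr12:53138065-53138967. Its pileup was 234 tags in BRG1 1 and 218 in BRG1 4, against 274 in control 1 and 269 in control 4, at percentiles of 95.3 to 96.1, and the groups overlapped after scaling. Further regions of the CHD3 window lay over other models: chr12:53164785-53166242 over LOC102159363, and chr12:53171961-53172445 over KCNAB3, a potassium channel subunit gene. That region was called in BRG1 1 and both controls and not in BRG1 4.

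CHD4 (chromosome 5, 64071627 to 64105212) was open at both ends. At the lower-coordinate end, chr5:64070924-64072135 had 115 and 147 tags in BRG1 1 and BRG1 4, against 157 and 137 in control 1 and control 4, and the groups overlapped once depth was scaled. At the other end, chr5:64105328-64106603 had 154 and 165 tags in the BRG1 libraries, against 142 and 135 in the controls, so that both BRG1 libraries were higher. This region begins 116 bp outside CHD4 and also covers an end of NOP2, a nucleolar RNA methyltransferase gene, and a lncRNA, so it cannot be assigned to CHD4 alone. A gene-body region, chr5:64079123-64079950, went the other way, with 28 and 19 tags in the BRG1 libraries against 41 and 39 in the controls. A pair of regions in the flank below the gene were also lower in both BRG1 libraries after scaling.

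CHD7, which acts at enhancers and is mutated in human CHARGE syndrome (chromosome 4, 72572455 to 72754443), is the longest member and was sparsely open. Its end region, chr4:72753688-72755361, had 94 tags in BRG1 1 and 40 in BRG1 4, against 97 in control 1 and 77 in control 4. The percentiles were 82.3, 58.6, 83.5 and 77.1, so by percentile BRG1 4 was low and BRG1 1 lay among the controls. Scaled for depth, BRG1 1 was the highest library, at 60.5 times the lowest background, and BRG1 4 the lowest, at 22.6. Control 1 stood at 50.7 and control 4 at 43.0 on that scale. BRG1 4 had the widest peak there, at 1674 bp against 1280 bp in BRG1 1, 1282 bp in control 1 and 1310 bp in control 4. All 4 regions of CHD7 shared by all libraries overlapped between groups in depth-scaled pileup.

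CHD8, a repressor of beta-catenin targets linked to human autism (chromosome 7, 77719476 to 77780148), was open at both ends and at a further site inside the gene. The lower-coordinate end, chr7:77718950-77720226, had 266 and 261 tags in BRG1 1 and BRG1 4, against 339 and 332 in control 1 and control 4. The internal site, chr7:77734186-77735187, had 233 and 198 tags in the BRG1 libraries against 250 and 256 in the controls. The higher-coordinate end, chr7:77780441-77781893, had 294 and 283 tags against 333 and 347, in the same order. This region begins 293 bp outside CHD8. It overlaps SUPT16H, which encodes a subunit of the histone chaperone FACT, and the uncharacterised LOC106504487, so it cannot be assigned to CHD8 alone. All 3 ranked at percentiles of 96.8 or more in every library, and after scaling for depth the groups separated at the lower-coordinate end alone, where BRG1 1 and BRG1 4 stood at 171 and 147 times the lowest background, against 177 and 185 in control 1 and control 4.

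INO80, the ATPase of the complex of that name (chromosome 1, 130201705 to 130341627), had 15 regions, 8 of them in all 4 libraries. The region across the lower-coordinate end, chr1:130201018-130202389, had 270 and 323 tags in BRG1 1 and BRG1 4, against 290 and 264 in control 1 and control 4. Scaled for depth these were 174 and 182 times the lowest background of the list in the BRG1 libraries, against 151 and 147 in the controls, so both BRG1 libraries were higher. Of the 7 gene-body regions called in all 4 libraries, 3 were lower in both BRG1 libraries after scaling, 1 was higher and 3 overlapped. The region chr1:130270747-130271139 had 10 and 14 tags in the BRG1 libraries against 24 and 28 in the controls, chr1:130299400-130299848 had 32 and 24 against 52 and 60, and chr1:130307840-130309595 had 42 and 51 against 72 and 68. The higher one, chr1:130320755-130321340, had 29 and 33 tags in the BRG1 libraries against 22 and 33 in the controls, or 18.7 and 18.6 times the lowest background against 11.5 and 18.4, so that control 4 lay just below both BRG1 libraries.

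A narrow INO80 region set BRG1 4 apart from the other libraries. At chr1:130221787-130222046 the pileup was 64 tags in BRG1 1 and 13 in BRG1 4, against 55 in control 1 and 61 in control 4. The percentiles were 82.4, 19.4, 77.6 and 80.8, and the peak was 200 bp wide in BRG1 4 against 257 to 259 bp in the others. BRG1 1 was the highest of the 4, so the groups overlapped.

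SRCAP, whose product deposits H2A.Z (chromosome 3, 17662374 to 17702862), was open at both ends. At the lower-coordinate end, chr3:17662106-17662862 had 102 and 93 tags in BRG1 1 and BRG1 4, against 120 and 118 in control 1 and control 4. At the other end, chr3:17701625-17703250 had 294 and 311 tags in the BRG1 libraries against 369 and 305 in the controls. The strongest region of the window by percentile in every list, chr3:17656171-17657479, reaches the end of PHKG2, a phosphorylase kinase gene, 4895 bp below SRCAP. The lower-coordinate end also lies inside TMEM265. After scaling for depth all 4 shared regions overlapped between groups. The 7 peaks of each BRG1 library included the faint BRG1-only region. The higher-end region was called as 2 peaks in BRG1 1 and control 4, and as 1 peak in BRG1 4 and control 1.

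**Figure D3:**
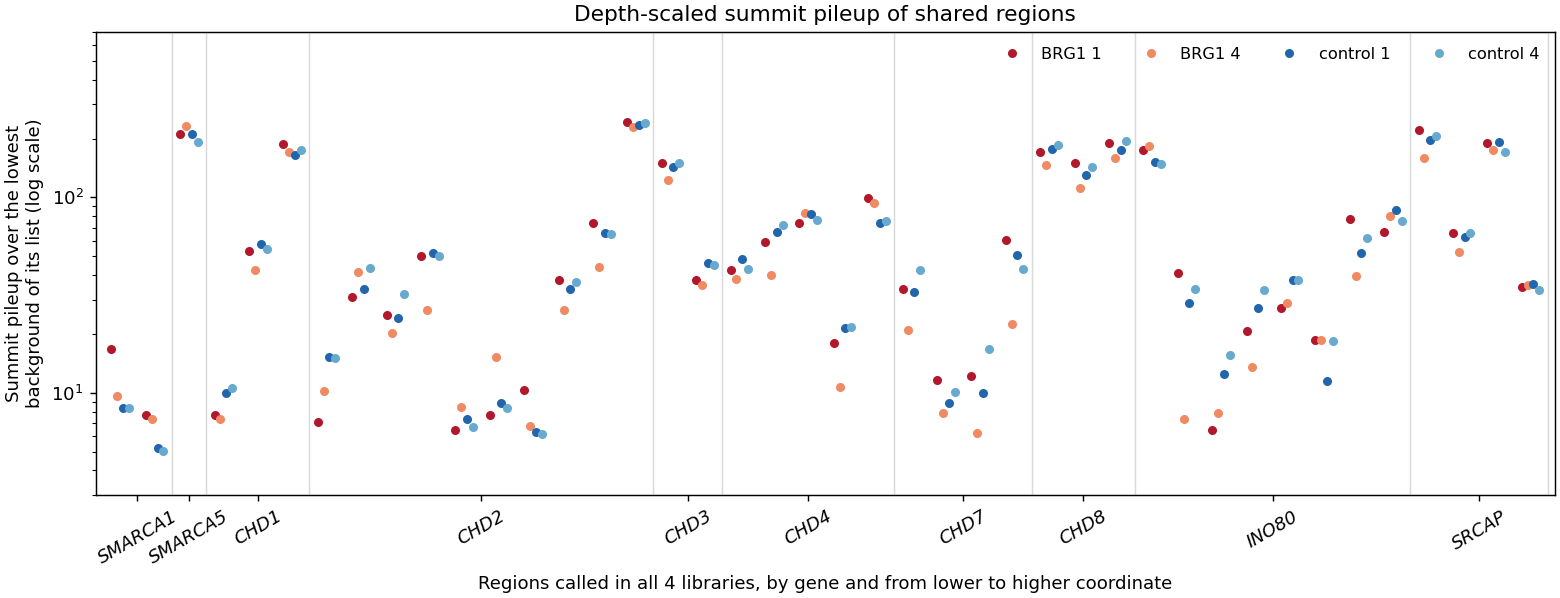
Summit pileup of the strongest peak of each library in a region, divided by the lowest background of the same list (log y axis). The 42 regions called in all 4 libraries are grouped by gene and ordered by coordinate, with 1 point per library. Most regions overlap between groups, and BRG1 4 is often the lowest point, as at INO80 near 20 kb and at the end of CHD7.

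Depth-scaled pileups were then set side by side for the 42 shared regions, as a description with no test. The strongest peak of each library stood for a region, so the summits compared can lie at different sites. Both BRG1 libraries lay below both controls in 12 of 42 regions (28.6%), where the background was 24.1% of 75244 shared regions. Both lay above both controls in 6 of 42 (14.3%), where the background was 11.2%. The median ratio of BRG1 to control means was 0.925 over the members and 0.920 over all shared regions, so the members' shares and median were near the background. BRG1 4 was the lowest library in 24 of 42 regions, and in 61.8% of all shared regions. The 12 lower regions were 3 each in CHD4 and INO80, 2 each in CHD1 and CHD2 and 1 each in CHD3 and CHD8. In the CHD3 region the BRG1 1 summit lay 30277 bp from the lower end, against 29173 to 29241 bp in the other libraries. The regions at the outer edge of the CHD1 and CHD2 windows had all their summits outside the 10 kb. At CHD1 the control peaks compared did not reach into the window at all. Some regions separated narrowly between BRG1 1 and control 4. At CHD2, chr7:86018346-86019016 had 50.20 in BRG1 1 against 50.25 in control 4, while BRG1 4 stood at 26.5. At CHD4, chr5:64061544-64061983 had 42.5 against 43.0, and at CHD1, chr2:105142667-105143482 had 53.4 against 54.7, in the same 2 libraries. The 6 higher regions were both regions of SMARCA1, 2 of INO80 and 1 each of CHD2 and CHD4. Among them both SMARCA1 regions compared different sites in some libraries, as given above.

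Gene ends were open in all 4 libraries at 8 of 10 members, against a background of 68.2% of protein-coding genes. The gene table gives no strand, so the end that holds the start is not named. The median width of the widest gene-end peak of these 8 genes was 1216 bp in BRG1 1 and 1378.5 bp in BRG1 4, against 1061.5 bp in control 1 and 1046 bp in control 4. Both BRG1 libraries lay above both controls, with 1297 ± 115 bp in BRG1 and 1054 ± 11.0 bp in control cells (SD, n = 2 each), a ratio of 1.23 (two-sided exact permutation p = 0.33). Over all 13334 genes with such a peak in all 4 libraries the medians were 908, 1063, 921 and 883 bp in the same order of libraries, a ratio of 1.09. Gene by gene, 3 of 8 members were wider in both BRG1 libraries, where the background was 24.0%, and 2 were narrower in both, where it was 7.30%.

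**Figure D4:**
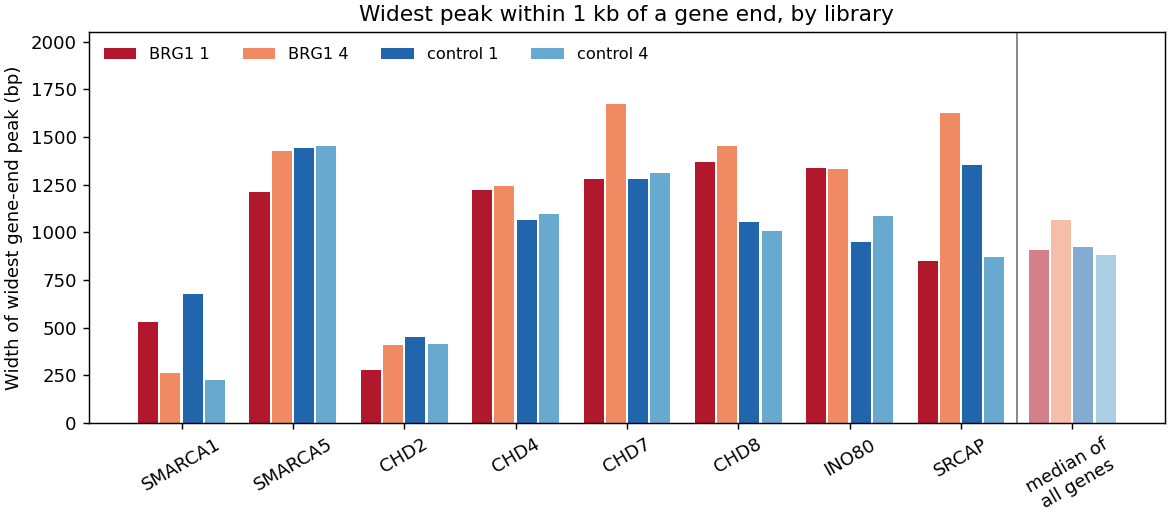
Width of the widest peak within 1 kb of either gene end (bp) in each library for the 8 genes with such a peak in all 4, and the median over all genes with one in all 4 libraries at the right. BRG1 bars exceed both control bars at CHD4, CHD8 and INO80, and fall below both at SMARCA5 and CHD2.

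The wider genes by this measure, which takes the widest peak at either end, were CHD4, CHD8 and INO80. At INO80 the peak measured 1336 bp in BRG1 1 and 1330 bp in BRG1 4, against 949 bp in control 1 and 1084 bp in control 4. At CHD8 and CHD4 the widest peak was not at the same end in every library, so the ends are given apart. At the higher-coordinate end of CHD8 the region starts outside the gene and overlaps SUPT16H. The widest peak there measured 1369 bp in BRG1 1 and 1453 bp in BRG1 4, against 789 bp in control 1 and 864 bp in control 4. In control 1 the site was called as 2 peaks. At its lower-coordinate end the widths were 1056 bp and 1277 bp in the BRG1 libraries against 1056 bp and 1008 bp in the controls, so BRG1 1 and control 1 were equal. At the higher-coordinate end of CHD4, in the region that starts outside the gene and covers an end of NOP2, they were 1222 bp and 1244 bp in the BRG1 libraries against 1061 bp and 1097 bp in the controls. At its lower-coordinate end they were 870 bp and 1212 bp against 1067 bp and 933 bp, and the groups overlapped. SMARCA5, at 1210 bp and 1427 bp in the BRG1 libraries against 1444 bp and 1454 bp in the controls, and CHD2 were narrower in both.

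Genes for other subunits and relatives were counted for comparison, from lists of 15 other CHD and SNF2 ATPases, 12 ISWI partners, 12 NuRD partners and 21 INO80 and SRCAP partners. Of these genes 53 were matched, counting RBBP4 and RBBP7, which stand on both the ISWI and NuRD lists, once. A gene-end peak was called in all 4 libraries at 51 of the 53, with 15 of 15 ATPases, 9 of 10 ISWI partners, 11 of 11 NuRD partners and 18 of 19 INO80 and SRCAP partners. The exceptions, with none in any library, were BAZ2B, an ISWI-binding bromodomain gene with 1 peak per library in its window, and ACTR8, an actin-related subunit of INO80. Both BRG1 libraries had fewer peaks than both controls at 11 of the 53 and more at 1, against backgrounds of 15.0% and 1.24%.

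BRG1-only regions lay in the windows of 4 of these 53 genes, where the background was 3.54% of all protein-coding genes, and control-only regions in those of 9, where it was 15.9%. The control-only count was near its background. Median windows in these lists were 42.1 to 98.3 kb, against 40.7 kb over all genes. These shares, and those for peak counts above, are therefore not on an equal footing. The BRG1-only cases were HLTF, a replication-fork translocase, RAD54L2, BAZ1A, the ACF1 partner of SNF2H, and GATAD2A, a NuRD subunit, with 1 region each. ATRX, a remodeller of heterochromatin on the X chromosome, had 3 control-only regions, and 3 peaks in each BRG1 library against 6 in each control. ERCC6, of transcription-coupled repair, had 2, with 4 peaks in each BRG1 library against 6 in each control. The remaining genes with 1 control-only region each were SHPRH, RBBP4, MBD2, ACTR8, INO80C, TFPT and YY1. None of these counts was tested, because the lists were drawn up with earlier results of these data known.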

How the data were processed

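ATAC-seq peaks of 4 libraries were analysed. The authors deposited a narrowPeak list for each of them. Per the submitters' processing notes, the tools were FastQC, BWA, Bowtie, SAMtools and MACS2 (versions, roles and order not stated) and the build was Sscrofa11.1. The fold the authors deposited is a ratio of summit pileup to background. Each peak's −log10 p-value and its q-value on the same scale (lowest 1.31 to 1.35) were computed by the authors' caller library by library. The deposited score restates the q-value and was not used. Not given in the sources used here were the Tn5 shift, the treatment of duplicate and mitochondrial reads and the caller settings, all of which bear on peak number and width.

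Fold and p-value together gave a whole-number pileup (tolerance 0.01) for 99.9875% to 99.9906% of peaks by list. The lowest background, taken as proportional to depth, scaled pileups between libraries. This holds only if tags were extended equally in all libraries, which is not known. Counting intervals are not given because absolute depth is unknown. Identical intervals made up at most 0.202% of the shorter list of any pair of libraries. Percentiles rank −log10 p within a list. Peaks overlapping by at least 1 bp were merged into regions. Gene positions came from a RefSeq table of the same build without strand or exons, so the planned promoter window was replaced by a gene end, within 1 kb of either end, exonic, intronic and UTR positions are not given, and the planned promoter motifs and sequences were not analysed here. Two-sided exact permutation tests compared the group means (Python 3.11.15). Region calling and pileup recovery were tested on simulated data. All 10 members are described; partner genes are named where a gene-end peak is missing from a library or a region is called in 1 group only. Unmatched list symbols were CECR2, HMGXB4, MTA1, H2AZ1, H2AZ2 and KRT14. The members, lists and tests were chosen with earlier results of these data known. Alternatives were a −log10 q of at least 5, lists of equal length (90851 or 45425), other windows and overlaps, leaving out each library and a replicate block.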

Additional observations from a re-analysis of the deposited data

How the results depend on the processing

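Of 83 comparisons of a main value with an alternative, 67 kept their direction or stayed within 1.5 times, 13 moved and 3 turned. The ratio of member peaks turned to 1.08 with lists of 90851 peaks and was 1 without peaks on another protein-coding model. The difference per 10000 peaks turned to −0.330 with lists of 45425. Regions called in all 4 libraries numbered 27 with lists of 45425 and 64 with 25 kb on both sides. BRG1-only regions numbered 4 with lists of 90851 and 0 with 45425, and control-only regions 1 under each. Leaving out each library in turn gave 0.968 to 0.984 for the peak ratio, 0.992 to 1.18 for the length ratio (turned without BRG1 4), 0.520 to 0.794 for the difference per 10000, 43 to 46 regions in all libraries left, 3 to 7 BRG1-only and 3 to 7 control-only regions, and 1.15 to 1.31 for the gene-end width ratio. Fewer libraries then had to share or lack a call. The cause of the other changes was not tested. Members with a gene-end peak numbered 6 to 8 under the other list and library choices. With gene ends of 3 kb, a window added after seeing the data, they numbered 10. An alternative within 1 kb of the gene start was not run, since the gene table gives no strand. A replicate block gave 0.976 for the peak ratio, 1.08 for length, 0.657 per 10000 and 1.23 for width (exact sign-flip test, p = 0.5, 1, 0.5 and 0.5, with 0.5 the lowest that 2 pairs allow). Same-numbered libraries share a number and nothing more in the labels, and their deviations correlated at −0.0100 over all regions. Unknown absolute depth and 2 libraries per group limit every comparison.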
